A study of Homo sapiens with 8 samples.

Results

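The 35 genes described here mark the neural stem, glial and neuronal identity of a cell. They form a list of names whose rule uses no measured value, and all 35 were found by symbol among the 61906 genes listed. U251 is a human glioblastoma cell line, labelled wild type, and LLY-283 inhibits PRMT5, an arginine methyltransferase whose product is symmetric dimethylarginine. Cultures in serum-supplemented medium received DMSO (vehicle) or LLY-283 at 100 nM, and poly(A) RNA was sequenced 24 h later, with 4 libraries labelled as biological replicates in each group. Whether the replicates were grown and treated independently is not stated further, so p-values measure the spread between these samples. The question addressed is how strongly an established glioblastoma line expresses each identity gene and whether PRMT5 inhibition changes that level.

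In the developing brain, radial glia and neural stem cells carry the transcription factors SOX2, SOX9 and PAX6 together with the intermediate filament nestin (NES) and the fatty acid binding protein FABP7. Astrocytes turn on the filament protein GFAP and transporters for glutamate and water, oligodendrocyte progenitors turn on OLIG1, OLIG2 and CSPG4, and young neurons turn on DCX and the tubulin TUBB3. Notch receptors act through HES1, and bone morphogenetic proteins (BMPs) act through ID1 and ID3, to hold progenitors back from neuronal differentiation. Glioblastoma cells are known to express mixtures of these programs.

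Of the 35 genes, 25 averaged at least 1 TPM across all 8 libraries and were tested. TPM, the expression unit of the table, is the share of the library that a gene's transcripts make up, corrected for length, so levels of different genes can be compared. SOX2, POU3F2, NES, FABP7 and GFAP fell by 11.2% to 17.1% with LLY-283 and were called in every setting tried. Calls near the threshold were also made for SOX4 and TUBB3 (lower) and L1CAM (higher). None of the members was called with a change above 1.5-fold. Among the remaining 17 tested members, 13 had a 95% interval that lay within 0.25 of 0 on the log2 scale.

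Vehicle libraries listed 24386 to 24757 genes above 0 and LLY-283 libraries 24042 to 24315, without overlap. Their depth is unknown, and the cause of this difference was not tested. Genes of the mitochondrial genome made up 7.19% of the TPM in LLY-283 replicate 4 and 10.2% to 11.0% in the other 7 libraries. Because this library stood apart, the values of members and of the other genes named are also given without it where that changes their call. Microglia and immune markers summed to between 2.12 and 4.00 TPM over the 8 libraries, with AIF1, P2RY12 and C1QA listed at 0 throughout and CD68 highest at 1.75 ± 0.874 TPM in vehicle (SD, n = 4). Endothelial markers summed to between 3.56 and 4.93 TPM, led by KDR. Of the markers of myelinating oligodendrocytes, MAG and SOX10 were listed at 0 and CNP was at 158 ± 2.07 TPM in vehicle and 149.7 ± 9.14 TPM in LLY-283 (adjusted p = 0.176, and 0.00398 without LLY-283 replicate 4, limma). The mature neuron list was led by the neurofilament gene NEFL, at 1184 ± 26.7 TPM in vehicle and 1249 ± 58.3 TPM in LLY-283 (adjusted p = 0.146, limma). That list summed to 1196 to 1258 TPM in vehicle and 1267 to 1389 TPM in LLY-283, without overlap. Most of both sums was NEFL, and RBFOX3, STMN2, SYN1 and SLC17A7 had means of 0.0225 to 0.0825 TPM in vehicle. GAD1, named after its values were seen, was at 43.6 ± 1.8 TPM in vehicle and 47.3 ± 1.69 TPM in LLY-283 (adjusted p = 0.0574, limma). It was called increased in 6 of 19 alternatives, among them the fit without LLY-283 replicate 4 (adjusted p = 0.0281, limma). Of the 10 genes listed, 4 were tested, with 3 higher, 1 lower (SYT1) and 0 called as reported. NEFL was called increased in 1 alternative, with each library's trend on GC content and transcript length removed (adjusted p = 0.0396, limma). Fibroblast and mesenchymal markers summed to 723 to 775.8 TPM in vehicle and 726.5 to 766.4 TPM in LLY-283, led by COL1A2 at 356 ± 6.09 TPM in vehicle and 339.5 ± 8.10 TPM in LLY-283 (adjusted p = 0.0772, and 0.0101 without LLY-283 replicate 4, limma). COL1A1 of that list, named after its values were seen, rose from 53.9 ± 2.59 to 74.9 ± 4.75 TPM (adjusted p = 0.000355, limma). Of the 5 genes of that list tested, 2 were higher and 3 lower, and COL1A1 was the only 1 called as reported (8.61% of all genes were increased). COL3A1, LUM and DCN had means of 0.0075 to 0.2 TPM in vehicle. The part of all these marker genes in the results on the members was not tested.

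Promoter sequence is shown for SOX2, POU3F2, NES and FABP7, which are 4 of the 5 members decreased in every setting (GFAP is not shown), and for HES1 as a Notch-responsive gene that was not called. Each window holds the 250 bases before the transcription start on GRCh38.p14, written 5′ to 3′ on the gene's own strand. SOX2 lies at chr3:181711675-181711924 (plus strand), POU3F2 at chr6:98834324-98834573 (plus), NES at chr1:156677408-156677657 (minus), FABP7 at chr6:122779466-122779715 (plus) and HES1 at chr3:194135898-194136147 (plus). Capitals mark the CCAAT box, the letters CCAAT on either strand (ATTGG where it is on the other one).
SOX2: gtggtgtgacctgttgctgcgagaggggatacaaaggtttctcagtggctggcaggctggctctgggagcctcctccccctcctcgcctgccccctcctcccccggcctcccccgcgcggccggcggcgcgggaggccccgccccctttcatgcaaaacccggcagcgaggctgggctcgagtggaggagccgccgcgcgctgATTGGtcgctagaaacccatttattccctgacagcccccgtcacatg
POU3F2: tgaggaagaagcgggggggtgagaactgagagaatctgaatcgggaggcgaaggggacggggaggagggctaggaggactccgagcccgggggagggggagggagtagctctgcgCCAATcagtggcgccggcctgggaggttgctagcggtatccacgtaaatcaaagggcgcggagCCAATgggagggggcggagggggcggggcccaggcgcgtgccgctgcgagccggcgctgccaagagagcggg
NES: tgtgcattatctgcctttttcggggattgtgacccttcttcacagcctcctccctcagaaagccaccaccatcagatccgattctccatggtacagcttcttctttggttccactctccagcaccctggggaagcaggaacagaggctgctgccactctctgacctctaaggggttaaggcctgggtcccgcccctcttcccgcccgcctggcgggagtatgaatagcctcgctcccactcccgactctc
FABP7: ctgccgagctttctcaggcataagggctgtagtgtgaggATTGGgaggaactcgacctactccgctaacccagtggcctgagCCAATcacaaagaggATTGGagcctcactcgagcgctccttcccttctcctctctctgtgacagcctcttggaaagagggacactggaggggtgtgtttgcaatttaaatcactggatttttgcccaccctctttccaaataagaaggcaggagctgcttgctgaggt
HES1: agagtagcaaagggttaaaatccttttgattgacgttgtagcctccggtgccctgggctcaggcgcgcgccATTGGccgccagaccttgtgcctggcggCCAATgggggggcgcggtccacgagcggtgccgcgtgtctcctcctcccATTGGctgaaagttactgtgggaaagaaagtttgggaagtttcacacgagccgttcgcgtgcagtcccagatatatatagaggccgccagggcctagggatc
The SOX2 window held 1 CCAAT box, POU3F2 held 2, FABP7 held 3 and NES held 0, while HES1 held 3 and the window of GJA1, another member that was not called, held 0. Of all 35116 promoter windows of this length, 32% held at least 1. The core of the sites bound by the Notch effector RBPJ, TGGGAA on either strand, occurred 2 times in the HES1 window and 0 times in those of SOX2, POU3F2, NES, FABP7 and GJA1, and 20.8% of all windows held it. GC content was 68.8% for SOX2, 69.2% for POU3F2, 58% for NES, 52.8% for FABP7 and 59.2% for HES1. These matches describe the letters only and do not separate the called from the uncalled genes shown.

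At baseline, vehicle-treated U251 cells expressed GFAP, an intermediate filament protein of astrocytes, at 809.5 ± 32.6 TPM (SD, n = 4), the highest level among the members and rank 167 of the 14478 genes tested. ID3, an inhibitor of basic helix-loop-helix factors that responds to BMPs, followed at 726 ± 26.6 TPM, and NES, a filament protein of neural stem cells, at 483 ± 4.67 TPM. TUBB3, a beta tubulin of neurons, was at 398 ± 11.0 TPM, ID1 at 331 ± 10.8 TPM and FABP7 at 311 ± 5.29 TPM. NES and FABP7 of stem cells, GFAP of astrocytes and TUBB3 of neurons thus stood side by side among the 6 most abundant members. The other neuronal members had vehicle means from 0.0025 TPM (DCX) to 58.7 TPM (SOX4). The vehicle values of ID1 (316.86 to 342.91 TPM) and FABP7 (306.11 to 318.63 TPM) overlapped.
A second tier held SOX9 (120.5 ± 3.69 TPM), a transcription factor of glial progenitors, SOX2 (103 ± 3.16 TPM), the pluripotency and neural stem cell factor, and GJA1 (100.0 ± 1.21 TPM), which encodes the gap junction protein connexin 43. The vehicle values of SOX2, 99.43 to 107.16 TPM, overlapped those of GJA1, 98.83 to 101.55 TPM. Means between 11.4 and 58.7 TPM in vehicle belonged to SOX4, HES1, POU3F2, NOTCH2, NCAM1, MAP2, PAX6, MSI1, SOX11, NOTCH1 and PTPRZ1. SLC1A3, L1CAM, SALL2, S100B and NTRK2 lay between 1.73 and 6.92 TPM.

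**Figure D1:**
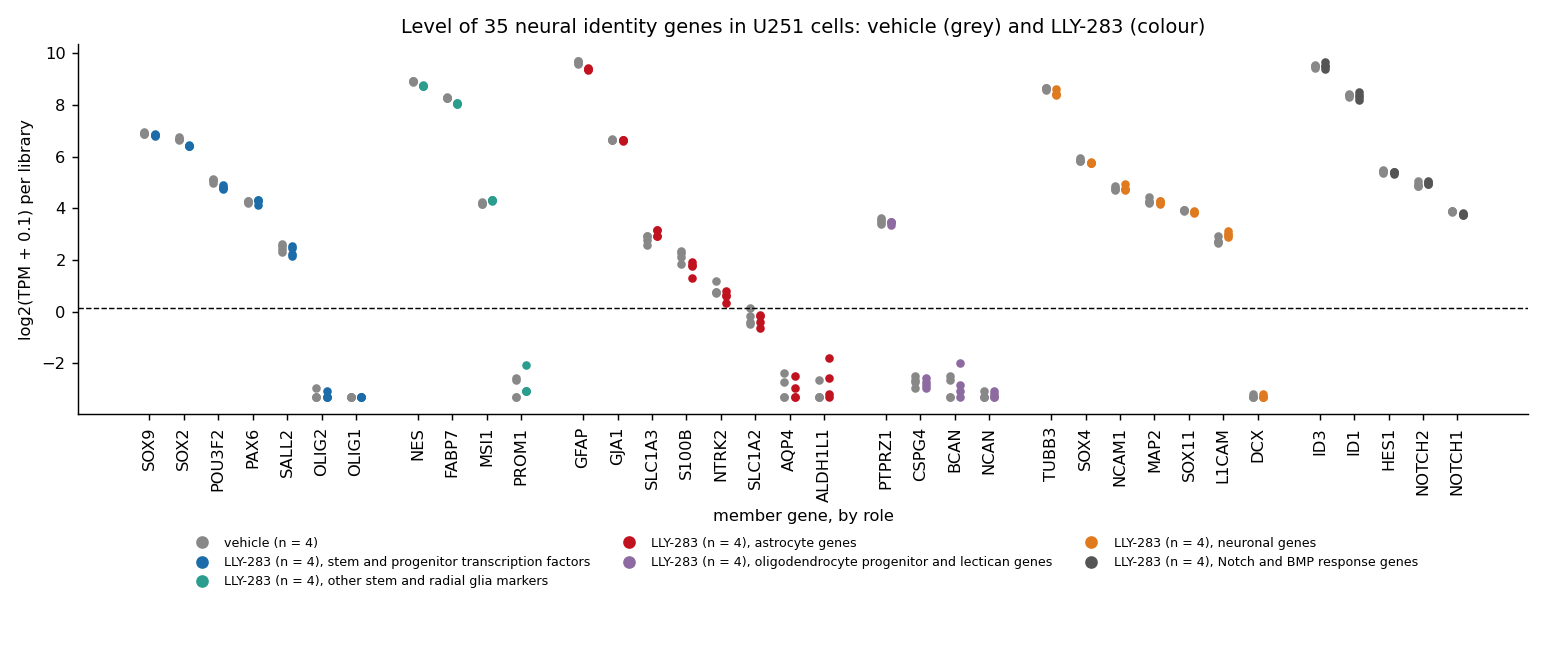
Level of each of the 35 genes in each library as log2(TPM + 0.1), grouped by role, with vehicle libraries in grey and LLY-283 libraries in colour; the dashed line marks 1 TPM. GFAP, ID3 and NES lie highest, and 10 genes lie below the line.

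Under 1 TPM were 10 members. OLIG1, a transcription factor of the oligodendrocyte lineage, was listed at 0 in all 8 libraries, and its partner OLIG2 was at 0.03 TPM in vehicle replicate 4, 0.02 TPM in LLY-283 replicate 3 and 0 elsewhere. DCX, a microtubule protein of migrating neuroblasts, reached 0.01 TPM in vehicle replicate 3 and LLY-283 replicate 3 and was listed at 0 in the other 6 libraries. The chondroitin sulfate proteoglycan genes NCAN (up to 0.02 TPM), CSPG4 (up to 0.08 TPM) and BCAN (up to 0.15 TPM) were also near 0. Likewise near 0 were PROM1, which encodes the stem cell antigen CD133 (up to 0.14 TPM), the water channel gene AQP4 (up to 0.09 TPM) and the folate enzyme gene ALDH1L1 (up to 0.19 TPM). The glutamate transporter gene SLC1A2 had 0.54 to 0.99 TPM over the 8 libraries. In the fit without a filter, the 9 of these genes with a value above 0 had adjusted p-values of at least 0.550 (limma). So the astrocyte group was spread, with GFAP and GJA1 abundant and AQP4, ALDH1L1 and SLC1A2 under 1 TPM. Between these lay SLC1A3, S100B and NTRK2, with means of 1.73 to 6.92 TPM in vehicle. Of the progenitor genes, OLIG1, OLIG2, CSPG4, BCAN and NCAN did not reach 1 TPM, whereas PTPRZ1 averaged 11.4 TPM in vehicle.

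Over the members tested, 7 of 25 (28.0%) were decreased at an adjusted p-value under 0.05 and 1 (4.00%) was increased. The background over all 14478 genes tested was 17.6% decreased and 8.61% increased. With a change above 1.5-fold required as well, 0 of the members passed, against 3.48% of all genes decreased and 0.394% increased. Without that threshold, among genes averaging 10 TPM or more, 7 of 20 members were decreased and 0 increased, against 18.2% and 12.2% of such genes. All 4 LLY-283 values lay below all 4 vehicle values in 7 members (background 19.6%) and above them in 1 member (background 9.63%). On the log2 scale the members had a median change of -0.08 and all genes tested one of -0.05. In bulk RNA, fewer cells of a type and less RNA per cell cannot be told apart.

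Among the transcription factors of stem and progenitor cells, SOX2 and POU3F2 fell and the others tested did not pass. SOX2 (ENSG00000181449, 1 exon, chr3:181711925-181714436 of GRCh38) had 103.49, 99.43, 107.16 and 103.25 TPM in vehicle replicates 1 to 4 and 85.74, 84.48, 87.08 and 85.19 TPM in LLY-283 replicates 1 to 4. The groups did not overlap, and the LLY-283 libraries spread less (SD 1.10 TPM) than the vehicle libraries (SD 3.16 TPM). The log2 fold change was -0.27 (standard error 0.0299, 95% interval -0.34 to -0.20, adjusted p = 0.000349, limma), a fall of 17.1%. SOX2 sits inside the span of the long noncoding gene SOX2-OT on the same strand. RSEM would divide any reads that fit both, but only gene spans were compared, so shared exon sequence was not tested. SOX2-OT itself fell from 66.03 to 77.19 TPM in vehicle to 58.49 to 64.16 TPM in LLY-283 (adjusted p = 0.00612, limma, with a change of -0.26 on the log2 scale), and the part of each in the change was not tested.
POU3F2 (BRN2; ENSG00000184486, 1 exon, chr6:98834574-98839458), a POU-domain factor of neural progenitors, had 34.34, 31.32, 34.78 and 33.70 TPM in vehicle and 29.45, 28.59, 27.80 and 26.72 TPM in LLY-283. Every LLY-283 value was below every vehicle value. Its log2 fold change was -0.25 (adjusted p = 0.00408, limma, standard error 0.0461). SOX9 (log2 fold change -0.08, 95% interval -0.15 to -0.01, adjusted p = 0.0905) had 111.26 to 117.11 TPM in LLY-283 and 116.74 to 124.67 TPM in vehicle, with 1 LLY-283 library inside the vehicle range. PAX6, the paired-box factor of radial glia and eye, was at 18.9 ± 0.508 TPM in vehicle and 19.1 ± 1.23 TPM in LLY-283 (interval -0.10 to 0.14, adjusted p = 0.828), and it overlaps ELP4 on the opposite strand. SALL2, a zinc finger factor at 5.45 ± 0.488 TPM in vehicle, had the wide interval of a low gene, -0.37 to 0.12 (adjusted p = 0.426).

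NES and FABP7, the other stem and radial glia markers of high level, fell too. NES (ENSG00000132688, 4 exons, chr1:156668763-156677407) had 483.05, 487.55, 476.39 and 484.06 TPM in vehicle and 428.12, 436.95, 426.03 and 424.22 TPM in LLY-283. Its coefficient of variation was 0.966% in vehicle, and the gap between the groups exceeded the range within either. The log2 fold change was -0.17 (adjusted p = 0.000731, limma, standard error 0.0222). FABP7 (brain lipid binding protein; ENSG00000164434, 4 exons, chr6:122779716-122784074) had 309.48, 311.57, 318.63 and 306.11 TPM in vehicle. In LLY-283 it had 266.08, 273.44, 261.74 and 273.22 TPM. These groups did not overlap, with a log2 fold change of -0.21 (adjusted p = 0.000515, limma, standard error 0.0258), a fall of 13.8%. After LLY-283 the values of FABP7 no longer reached those of ID1 (290.35 to 362.24 TPM), which they had overlapped in vehicle.
MSI1, which encodes the RNA-binding protein Musashi-1 of neural stem cells, was higher in every LLY-283 library but did not pass the threshold. It had 18.08, 17.83, 18.89 and 18.31 TPM in vehicle and 19.97, 19.72, 20.09 and 19.26 TPM in LLY-283. All LLY-283 values were higher, and the log2 fold change was 0.11 (95% interval 0.03 to 0.20, adjusted p = 0.0554, limma). MSI1 passed the threshold in 6 of 19 alternatives, among them median-of-ratios scaling (adjusted p = 0.00961, with a change of 0.16 on the log2 scale) and the fits without LLY-283 replicate 4 (adjusted p = 0.0362) or vehicle replicate 3 (adjusted p = 0.0499).

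**Figure D2:**
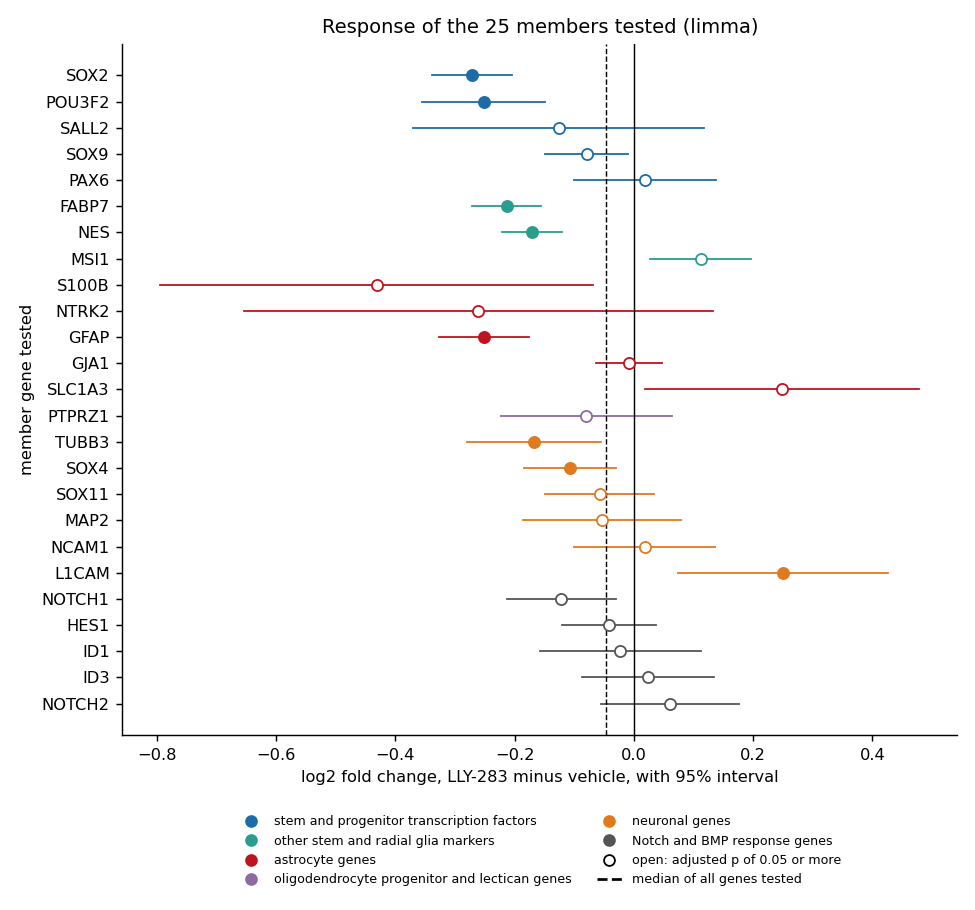
Log2 fold change of LLY-283 against vehicle with its 95% interval for the 25 members tested, by role; filled points had an adjusted p-value under 0.05 and the dashed line is the median of all genes tested (-0.05). Filled points to the left are SOX2, POU3F2, FABP7, NES, GFAP, TUBB3 and SOX4, and L1CAM is filled to the right.

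In the astrocyte group GFAP fell, whereas GJA1 stayed within narrow limits. GFAP (ENSG00000131095, 9 exons, chr17:44903159-44916937) had 778.18, 835.31, 839.89 and 784.66 TPM in vehicle and 682.26, 700.97, 662.82 and 673.48 TPM in LLY-283. The lowest vehicle value exceeded the highest LLY-283 value. The log2 fold change was -0.25 (standard error 0.0335, 95% interval -0.33 to -0.18, adjusted p = 0.000820, limma), a fall of 16.0%. GFAP overlaps CCDC103 and FAM187A on the opposite strand, which were at 12.3 and 4.38 TPM in vehicle. Strandedness of the counting is not stated.
GJA1 was at 100.0 ± 1.21 TPM in vehicle and 99.5 ± 1.22 TPM in LLY-283, with an interval of -0.06 to 0.05 (adjusted p = 0.841, limma). SOX2, whose vehicle values overlapped those of GJA1, was below GJA1 in every LLY-283 library. The calcium-binding protein gene S100B had the lowest fitted value of the members, -0.43, but its vehicle values (3.46 to 4.94 TPM) and LLY-283 values (2.34 to 3.73 TPM) overlapped (95% interval -0.79 to -0.07, adjusted p = 0.0781). SLC1A3, the glial glutamate transporter EAAT1, had 5.83 to 7.56 TPM in vehicle and 7.44 to 8.96 TPM in LLY-283, overlapping ranges with a log2 fold change of 0.25 (adjusted p = 0.105). It passed under quantile normalization (adjusted p = 0.0185), with the trend on GC content and length removed (adjusted p = 0.0245) and with a replicate block (adjusted p = 0.0363). NTRK2, the receptor for brain-derived neurotrophic factor, was at 1.73 ± 0.300 TPM in vehicle and 1.42 ± 0.190 TPM in LLY-283 (adjusted p = 0.305).
Of the oligodendrocyte progenitor and lectican genes only PTPRZ1, a receptor tyrosine phosphatase that carries chondroitin sulfate, was high enough to test. It had 10.38 to 12.29 TPM in vehicle and 10.05 to 11.09 TPM in LLY-283 (95% interval -0.22 to 0.06, adjusted p = 0.392, limma).

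**Figure D3:**
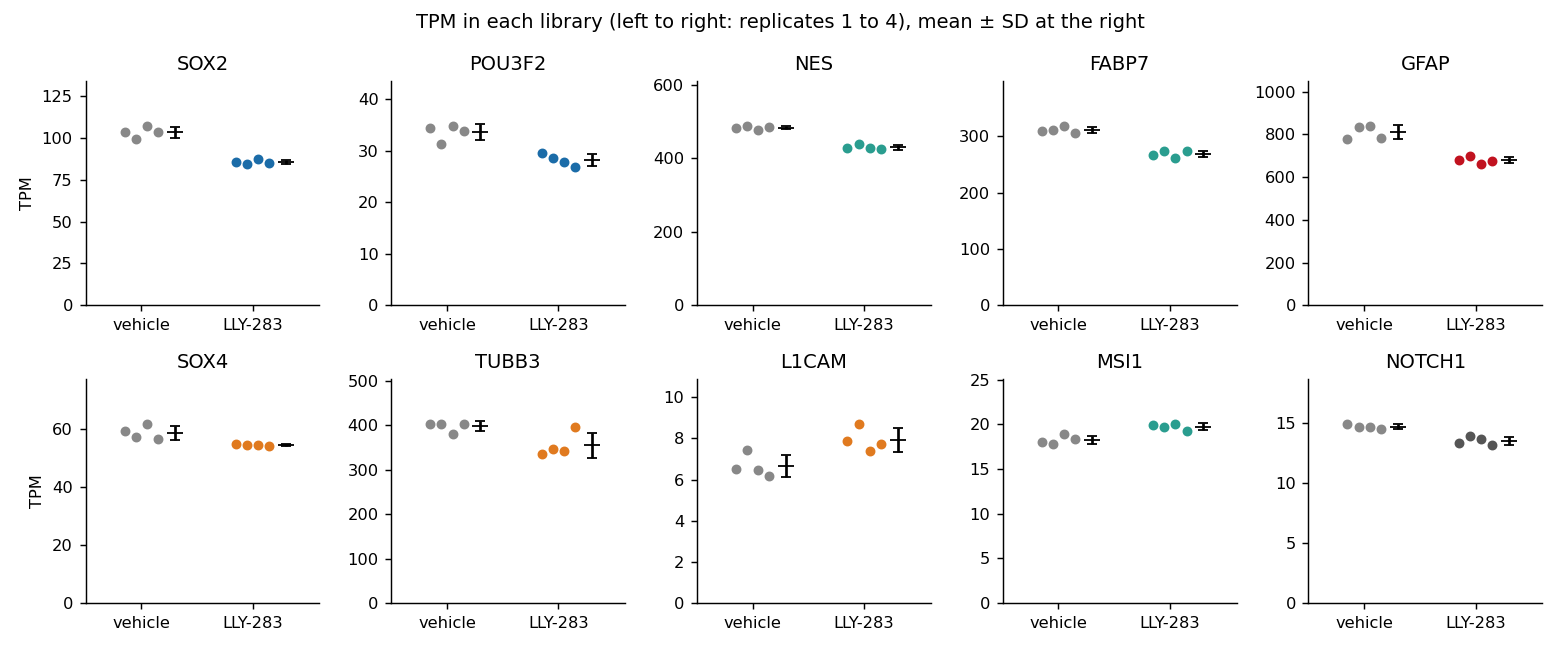
TPM of 10 members in each library (y axes start at 0), with vehicle in grey, LLY-283 in colour, replicates 1 to 4 from left to right and the mean ± SD beside them. The groups are apart for SOX2, POU3F2, NES, FABP7, GFAP, SOX4, MSI1 and NOTCH1 and overlap for TUBB3 and L1CAM.

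Neuronal genes did not move one way. SOX4 (1 exon, chr6:21593751-21598619), a SOX factor of immature neurons, had 59.22, 57.28, 61.86 and 56.56 TPM in vehicle and 54.78, 54.43, 54.61 and 54.12 TPM in LLY-283. The groups did not overlap, but the gap between them was small, and the log2 fold change was -0.11 (adjusted p = 0.0452, limma, standard error 0.0342). SOX4 failed the threshold in 12 of 19 alternatives, including those without any single library except vehicle replicate 4 (adjusted p-values of 0.0543 to 0.0921). With the GC and length trend removed its log2 fold change was -0.03 (adjusted p = 0.496), and with median-of-ratios scaling it was -0.06 (adjusted p = 0.179). Its close relative SOX11 was at 15.1 ± 0.295 TPM in vehicle and 14.5 ± 0.350 TPM in LLY-283 (adjusted p = 0.333).
TUBB3 (4 exons, chr16:89921392-89938761) had 404.26, 402.57, 381.75 and 404.07 TPM in vehicle and 335.47, 347.17, 342.09 and 395.93 TPM in LLY-283. LLY-283 replicates 1 to 3 lay below all vehicle values, and replicate 4, the library of low mitochondrial share, lay inside the vehicle range. The log2 fold change was -0.17 (adjusted p = 0.0361, limma, standard error 0.0503) with all libraries and -0.22 (adjusted p = 0.000874) without LLY-283 replicate 4. Leaving out vehicle replicate 3 also kept the call (adjusted p = 0.0494), whereas it was lost without any of the remaining 6 libraries (adjusted p-values of 0.0862 to 0.0934). It was also lost with the GC and length trend removed (adjusted p = 0.327, with a change of -0.08 on the log2 scale), with median-of-ratios scaling (adjusted p = 0.151), without a filter (adjusted p = 0.0858) and with eBayes without a trend (adjusted p = 0.0737). TUBB3 belongs to the beta tubulin family, between whose similar coding sequences RSEM divides reads.
L1CAM (29 exons, chrX:153861514-153886173), an adhesion molecule of axons, had 6.52, 7.43, 6.47 and 6.16 TPM in vehicle and 7.85, 8.72, 7.38 and 7.73 TPM in LLY-283. Only LLY-283 replicate 3 fell inside the vehicle range. The log2 fold change of 0.25 (adjusted p = 0.0423, limma, standard error 0.0784) corresponds to a rise of 19.0%, and it failed the threshold in 8 of 19 alternatives. Among these were the fits without vehicle replicates 1, 3 or 4 or LLY-283 replicates 1, 2 or 4 (adjusted p-values of 0.0585 to 0.112). The neuronal genes MAP2 (dendritic microtubule protein) and NCAM1 (neural cell adhesion molecule) had intervals of -0.19 to 0.08 and -0.10 to 0.14 (adjusted p = 0.541 and 0.83).

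None of the 5 Notch and BMP response genes passed the test by limma, and 1 of them, NOTCH1, had an unadjusted p-value under 0.05. ID3 was at 726 ± 26.6 TPM in vehicle and 739 ± 51.6 TPM in LLY-283 (95% interval -0.09 to 0.13, adjusted p = 0.762, limma). ID1 was at 331 ± 10.8 TPM and 327 ± 30.1 TPM (interval -0.16 to 0.11, adjusted p = 0.810). In the LLY-283 group both ID genes were lowest in replicate 1 (290.35 TPM for ID1, 682.20 TPM for ID3) and highest in replicate 4 (362.24 and 807.39 TPM). HES1, the repressor that Notch induces, was at 43.0 ± 1.34 TPM in vehicle and 41.8 ± 0.971 TPM in LLY-283 (interval -0.12 to 0.04, adjusted p = 0.413).
Of the receptors, NOTCH1 (34 exons, chr9:136494433-136546048) had 14.98, 14.66, 14.73 and 14.51 TPM in vehicle and 13.35, 13.90, 13.71 and 13.15 TPM in LLY-283. The groups did not overlap, and the log2 fold change of -0.12 (95% interval -0.21 to -0.03) had an adjusted p-value of 0.0537 (limma). NOTCH1 passed in 1 of 19 alternatives, eBayes without a trend (adjusted p = 0.0287). NOTCH2 had 28.79 to 32.88 TPM in vehicle and 30.44 to 32.80 TPM in LLY-283 (adjusted p = 0.425). With the GC and length trend removed NOTCH2 was called increased (adjusted p = 0.0305, with a change of 0.15 on the log2 scale against 0.06 as reported), the only one of 19 alternatives to do so. Its near copies, of which NOTCH2NLA was at 28.5 TPM in vehicle, share reads with it, so its level is uncertain.

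The size of the 5 decreases called in every setting depended on scaling. With the trend of each library on GC content and transcript length removed, the log2 fold change was -0.18 for SOX2, -0.19 for POU3F2, -0.11 for NES, -0.14 for FABP7 and -0.15 for GFAP. All 5 still had adjusted p-values under 0.05, the highest being 0.0328 for NES. That step moved the median of all genes tested from -0.05 to 0.03. Without LLY-283 replicate 4 the 5 genes had log2 fold changes between -0.27 and -0.17, and all passed.

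**Figure D4:**
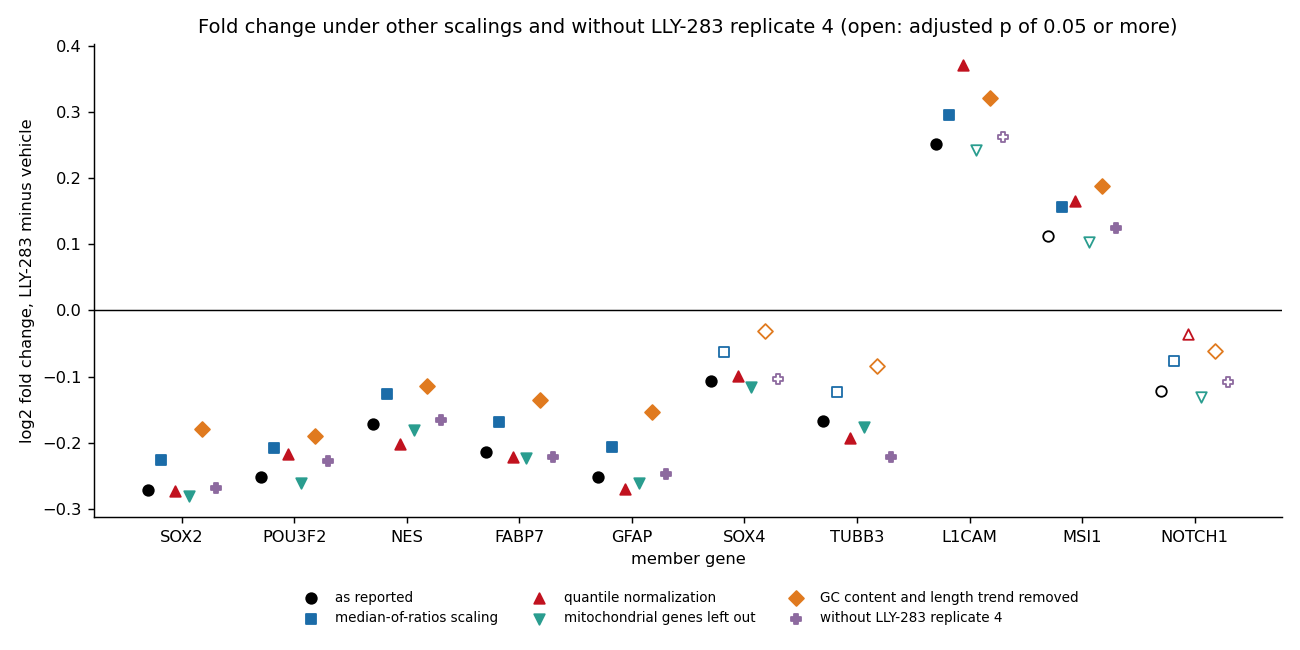
Log2 fold change of 10 members as reported, under 4 other treatments of the values and without LLY-283 replicate 4; open symbols had an adjusted p-value of 0.05 or more. SOX2, POU3F2, NES, FABP7 and GFAP stay filled and negative throughout, and removal of the GC and length trend brings them closest to 0.

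Other genes of the same pathways and families were taken from lists written from general knowledge, but chosen with earlier results of these data known. Their counts are read against all genes tested, of which 8.61% were increased and 17.6% decreased as reported, 13.3% and 12.9% with median-of-ratios scaling, 12.9% and 12.6% with quantile normalization, and 18.8% and 10.8% with the GC and length trend removed. Counts over a few genes that move with these shares show nothing particular to a list. Among the Notch ligands tested, JAG1, the ligand Jagged-1, rose from 47.4 ± 1.20 to 57.2 ± 2.64 TPM (adjusted p = 0.00143, limma, with a change of 0.27 on the log2 scale), and DLL1, the other one tested, was at 1.84 ± 0.143 and 1.74 ± 0.162 TPM. Of 14 receptor and processing genes, 1 fell and 0 rose, but 0 fell and 4 rose with median-of-ratios scaling, 0 fell and 3 rose with the GC and length trend removed, and 1 fell and 2 rose with quantile normalization, as the shares over all genes also moved from decreased to increased. The one that fell was LFNG, a glycosyltransferase that modifies Notch, from 51.7 ± 0.897 to 48.1 ± 0.732 TPM (adjusted p = 0.0247). It was called in 13 of 19 alternatives and lost the call with median-of-ratios scaling, with the GC and length trend removed, with a replicate block (adjusted p = 0.0557) and without vehicle replicate 3, vehicle replicate 4 or LLY-283 replicate 1 (adjusted p-values of 0.0512 to 0.0648). ADAM10, the protease of highest level there, was at 143 ± 8.84 and 149 ± 12.6 TPM (adjusted p = 0.556). Of 15 nuclear factors and regulators, MIB2, a ubiquitin ligase acting on Notch ligands, rose from 26.3 ± 2.94 to 34.6 ± 3.54 TPM (adjusted p = 0.0132, with a change of 0.40 on the log2 scale), and 0 fell. MIB2 was called in all 19 alternatives, but the list had 5 increased genes with the GC and length trend removed, 2 increased and 1 decreased without LLY-283 replicate 4, and 1 increased and 1 decreased in 4 further alternatives, one of them the fit without vehicle replicate 1. SNW1 had the highest level there. A further list held other HES and HEY genes and the Notch feedback regulator NRARP. Of the 5 tested (HES4, HES6, HEY1, HEY2 and NRARP), HES4 and HES6 fell and 0 rose (17.6% and 8.61% over all genes). The median of the 5 on the log2 scale was -0.20 (all genes -0.05). HES6, a neurogenic factor that can act against HES1, fell from 49.6 ± 1.88 to 38.5 ± 1.61 TPM (adjusted p = 0.000421, with a change of -0.36 on the log2 scale). HES4 lost its call with the GC and length trend removed (adjusted p = 0.596), and with eBayes without a trend 3 of the 5 were decreased.
Among BMP ligands and antagonists, 2 of 7 tested rose and 1 fell (8.61% and 17.6% over all genes), with 3 increased under median-of-ratios scaling, with the GC and length trend removed and without vehicle replicate 3, and 2 decreased with eBayes without a trend. GDF11, a ligand related to myostatin and the only gene of these lists called with a change above 1.5-fold as reported, went from 8.95 ± 1.15 to 5.50 ± 0.231 TPM. Its log2 fold change was -0.68 (adjusted p = 0.00101, limma). GDF11 was called in all 19 alternatives, with log2 fold changes of -0.78 to -0.56, so the change was not above 1.5-fold in every one. The increased genes were FSTL1, a secreted follistatin-like protein, from 113 ± 4.24 to 131 ± 4.91 TPM, and BMP1, a procollagen protease (adjusted p = 0.00180, with a change of 0.20 on the log2 scale). Among 10 receptors and SMADs tested, limma called 0 in the main setting and in each of the 19 alternatives, with 1 at an unadjusted p-value under 0.05. SMAD5 had the highest level there. Of 11 targets and feedback genes, SMAD6 and SMURF2 rose and 0 fell. SMURF2, a ubiquitin ligase of the pathway (adjusted p = 0.0374), was called in 9 of 19 alternatives and lost its call without any single library except LLY-283 replicate 4 (adjusted p-values of 0.0647 to 0.0969), whereas SMAD6 was called in all 19. With the GC and length trend removed 3 of the 11 were increased, and with eBayes without a trend 1 was increased and 1 decreased. SMAD6, an inhibitor induced by BMP signalling, rose from 21.9 ± 0.800 to 28.4 ± 0.376 TPM (adjusted p = 0.000232, with a change of 0.38 on the log2 scale), while ID2 was at 62.4 ± 2.79 and 60.9 ± 4.38 TPM (adjusted p = 0.648).
Within the SOX family, 2 of the 6 other genes tested fell and 1 rose (17.6% and 8.61% over all genes), with 1 decreased once the GC and length trend was removed (10.8% over all genes). SOX12, which belongs with SOX4 and SOX11 to the SoxC group, fell from 27.6 ± 1.01 to 22.1 ± 0.843 TPM (adjusted p = 0.000906, limma, with a change of -0.32 on the log2 scale). SOX18, a factor known from vessels, rose from 10.7 ± 0.339 to 13.4 ± 1.12 TPM (adjusted p = 0.00735), and SOX3 was highest at 67.8 ± 1.17 TPM in vehicle. In the neural matrix list, 1 of 11 tested rose and 1 fell. The number increased was 3 with median-of-ratios scaling and with the GC and length trend removed, and 0 with quantile normalization, without a filter and without vehicle replicate 2, vehicle replicate 4 or LLY-283 replicate 1. CD44, the hyaluronan receptor, rose from 1576 ± 45.2 to 1700 ± 22.7 TPM (adjusted p = 0.0168, with a change of 0.11 on the log2 scale) but lost the call in 6 of 19 alternatives, among them the fits without vehicle replicate 1, 2 or 4 or LLY-283 replicate 1 (adjusted p-values of up to 0.0564). The proteoglycan gene SDC3 fell from 56.0 ± 2.23 to 48.7 ± 0.559 TPM (adjusted p = 0.00296).
Of 18 other stem and progenitor genes tested, 16 had lower values in LLY-283, 5 fell and 0 rose, with a median log2 fold change of -0.14, where 60.2% of all genes tested had lower values and 17.6% were decreased. VIM, the vimentin gene and the highest of the list, was at 4301 ± 34.8 TPM in vehicle and 4121 ± 180.0 TPM in LLY-283 (adjusted p = 0.195, limma). Without LLY-283 replicate 4, where it was at 4390.24 TPM, VIM was decreased (adjusted p = 0.00179), as it was with quantile normalization (adjusted p = 0.00633) and with mitochondrial genes left out (adjusted p = 0.0167). With median-of-ratios scaling 2 of the 18 fell and 1 rose (12.9% and 13.3% over all genes), and with the GC and length trend removed 0 fell and 1 rose (10.8% and 18.8% over all genes). Without a filter 1 fell, and with eBayes without a trend or a replicate block 3 fell. Leaving out vehicle replicate 3, LLY-283 replicate 1 or LLY-283 replicate 2 left 2 decreased, and leaving out vehicle replicate 1, 2 or 4 or LLY-283 replicate 3 left 3.

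**Figure D5:**
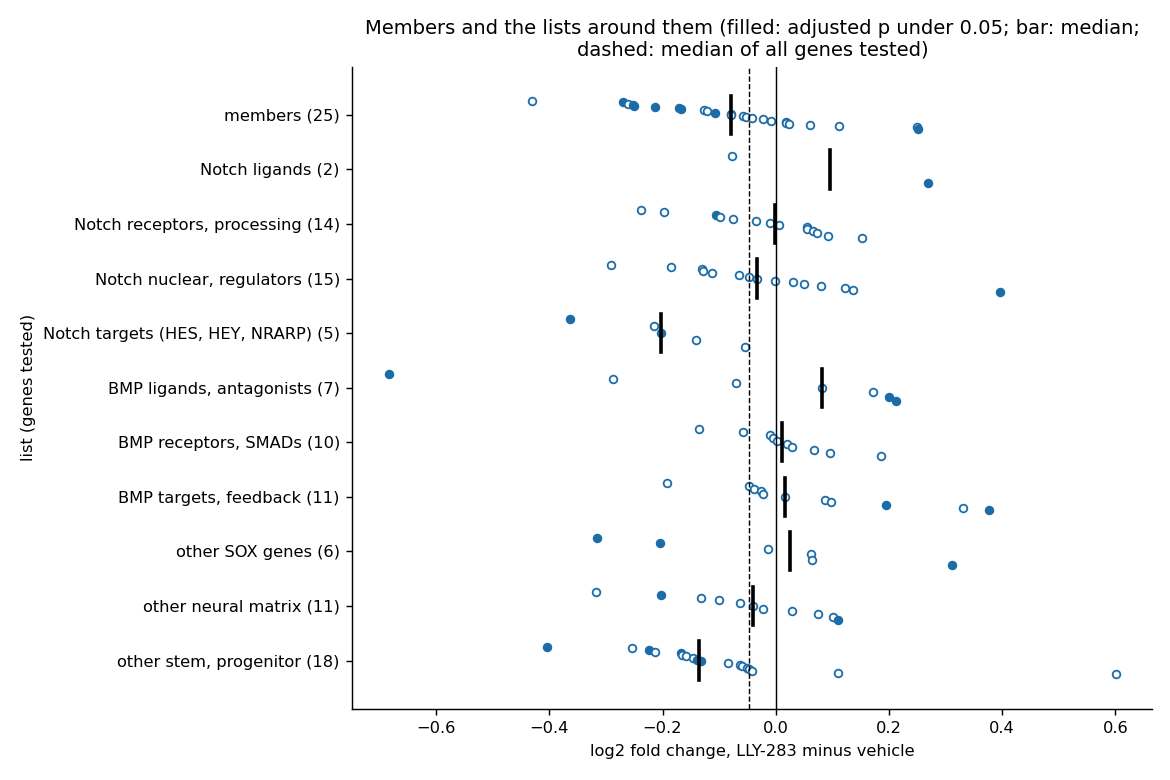
Log2 fold change of each tested gene in the members and in 10 lists around them; filled points had an adjusted p-value under 0.05, bars are list medians and the dashed line is the median of all genes tested (-0.05). Filled points lie on both sides of 0, and the one farthest to the left is GDF11 at -0.68.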

How the data were processed

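RNA was measured by RNAseq in 8 U251 cultures. The authors trimmed the reads with Cutadapt 1.18, aligned them by STAR to GRCh38 and quantified genes by RSEM with GENCODE release 41; the processing notes and the methods name different versions of STAR and RSEM. The TPM values the authors deposited, 1 column per library and 61906 genes, were used as they stand. TPM keeps no read numbers, so depth is unknown and no counting interval is given; precision rests on the 4 libraries per group.

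Genes averaging at least 1 TPM across all 8 libraries (14478) were kept, and log2(TPM + 0.1) was taken. Groups were compared by limma 3.58.1 in R 4.3.3 (eBayes with a mean-variance trend, no replicate block), with Benjamini-Hochberg adjustment over all genes tested, two-sided. The comparison was tested on simulated data, but the outcome is not given here and no result rests on it. Members, lists and thresholds were chosen with earlier results of these data known. The genes named are all 35 members and, in each surrounding list, genes called with over a 1.5-fold change, the called gene of smallest p in each direction and the gene of highest level, plus cell type markers at 0; any other gene was named after its values were seen. A gene that this rule names is not reported here. Loci and overlaps came from GENCODE release 44 on GRCh38, promoters from RefSeq on GRCh38.p14, where 25 of the 35 members had an entry. The alternatives were pseudocounts of 0.5 and 1, a minimum of 5 TPM or no filter, median-of-ratios scaling, quantile normalization, mitochondrial genes left out, removal of each library's dependence on GC content and transcript length (splines with 4 degrees of freedom each, 14457 genes), other forms of eBayes, a replicate block, and each library left out in turn.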

Additional observations from a re-analysis of the deposited data

Results flagged for a closer look

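In 10 of the 70 groups of 4 libraries examined (35 members in each treatment), 1 library stood apart from the other 3 by Dixon's test at 95%, which by chance marks about 1 group in 20. The 25 members tested gave 3 of these in 50 groups (6%), close to the 5% that chance gives. TUBB3 was at 381.75 TPM in vehicle replicate 3, below the other vehicle libraries, NTRK2 was at 2.18 TPM in vehicle replicate 3, above the others, and NCAM1 was at 30.27 TPM in LLY-283 replicate 3, above the others.

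The remaining ones were members near 0, where a library with any signal stands apart from libraries at or close to 0. OLIG2 was at 0.03 TPM in vehicle replicate 4 and at 0.02 TPM in LLY-283 replicate 3. PROM1 was at 0.14 TPM in LLY-283 replicate 1, ALDH1L1 at 0.06 TPM in vehicle replicate 3 and NCAN at 0.02 TPM in vehicle replicate 2. DCX was at 0.01 TPM in vehicle replicate 3 and at 0.01 TPM in LLY-283 replicate 3.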

How the results depend on the processing

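SOX2, POU3F2, NES, FABP7 and GFAP kept their direction and their call in all 19 alternatives, and the number of decreased members stayed between 5 and 7. The number of increased members, 1 as reported, was 0 without a filter and with mitochondrial genes left out, 2 with median-of-ratios scaling and with eBayes without a trend, 3 with quantile normalization, 4 with the GC and length trend removed, and 0 to 1 when single libraries were left out. Over all genes the increased share also moved, from 8.61% to 13.3% with median-of-ratios scaling, 12.9% with quantile normalization and 18.8% with the GC and length trend removed. The cause was not tested. SOX4, TUBB3 and L1CAM lost their call in 12, 10 and 8 alternatives, and none of the members with a call changed direction. The replicate numbers gave no sign of pairing. Deviations of same-numbered libraries correlated between -0.0851 and 0.032, and those of differently numbered libraries between -0.213 and 0.201. So few correlations cannot exclude a pairing of the cultures. With a replicate block, 2 members were increased and 6 decreased, and over all genes 1095 were increased and 2201 decreased, against 1247 and 2541 without it. Depth is unknown, and wide intervals of members under 10 TPM, such as S100B, limit what can be said of them.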

Other observations

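BCAN, at no more than 0.15 TPM in any library, overlaps on the opposite strand a gene listed only by its identifier, ENSG00000272405. That gene was named after its values were seen. It had 20.30 to 21.58 TPM in vehicle and 10.20 to 11.05 TPM in LLY-283, a change of -0.98 on the log2 scale (adjusted p = 4.44e-06, limma, standard error 0.0452).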
